A study of Chlorella sorokiniana and Chromochloris zofingiensis with 12 samples.

Results

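The tRNA entries of 74 bases or more are the long members of the Arabidopsis thaliana tRNA annotation to which small RNA reads of 2 green algae were matched. Only entries listed with at least 2 reads in some library were known. Such an entry was taken as a member when its type was tRNA and its coordinates spanned at least 74 bases. This gave 214 members among 519 listed tRNA entries and 893 listed annotation entries of all RNA classes. The length rule used no read count, but 36 members were listed only in stressed C. zofingiensis. A read was counted at every entry that it matched, and members with the same counts in all 12 libraries were therefore treated as 1 count pattern, which left 56 patterns. The files give no amino acid and no strand for an entry, so members are called by length and position on the Arabidopsis build TAIR9.

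A tRNA carries an amino acid to the ribosome and folds into a cloverleaf of a few short arms. Some tRNAs are longer than the rest because they have a long variable arm, as the tRNAs of serine and leucine do, or because the gene holds an intron that is removed from the transcript. Short pieces of tRNAs are common in small RNA libraries of plants and algae, and cutting of tRNAs under stress is known from many eukaryotes.

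The libraries came from total RNA of Chlorella sorokiniana strain NIES-2168 and Chlorella zofingiensis strain ATCC30412, extracted with TRIzol, with 3 libraries in each of 4 groups. In both species the normal culture was kept at 27 °C in the medium BBM, shaken at 30 rpm, under continuous light of about 10 µmol photons. For the stress culture the light was raised to 100 µmol photons and 2% glucose was added, so the effects of light and of glucose cannot be told apart. The labels do not say whether the 3 libraries of a group came from separate cultures, and p-values then measure only the spread between these libraries.

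Sequencing depth set what could be seen. Annotated counts, summed over all entries, ran from 2718 in normal library 3 of C. sorokiniana to 280404 in stress library 2 of C. zofingiensis. A sheet lists no entry with fewer than 2 reads. An entry that was not listed was taken as 0 and is given below as without a read, though it may have had 1, so no fold change is given against a group at 0. In stress library 2 of C. zofingiensis, 5 tRNA entries of another length with the same counts took 34.3% of the annotated counts.

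For each entry and library the sheets give the commonest small RNA, here called a tag. The tags below are those that led the members described in the results, and the capital marks the last A, which 94 of the 98 different commonest tags of members had. Whether that A belongs to the RNA was not tested, and the commonest tags of shorter tRNA entries ended in A in 96% of cases. The tags had 11 to 35 bases with a median of 16, and they matched 1 to 49 loci with a median of 18, so most cannot be assigned to 1 entry. Tags that resembled sequence of other organisms by eye are not printed, and some of these led members that rose in stressed C. zofingiensis.
74-base entry at chr1:26049478-26049551, C. sorokiniana: ggctgttaaccA
The same entry, normal C. zofingiensis: gactgttaaccacaA
74-base entry at chr1:11104113-11104186, C. sorokiniana: ggctattagctcagttggttagagcA
84-base chloroplast entry at chrC:30323-30406, C. sorokiniana: aaatccagctcggcccaccaA
The same chloroplast entry, normal C. zofingiensis: ggtcgatgcccgagtggttaaaggggA
84-base entry at chr1:6948860-6948943, normal C. zofingiensis: acaggatggccgagtA
85-base entry at chr1:21290903-21290987, stressed C. sorokiniana: cgcctttagttcagttggtagA
85-base entry at chr1:21296663-21296747, stressed C. sorokiniana: ctcagttggtagagcagaggacA
89-base entry at chr5:20741626-20741714, normal C. zofingiensis: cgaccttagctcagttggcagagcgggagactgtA

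The members fell into few lengths. Of the 214 entries, 58 had 74 bases, 10 had 80, 14 had 81, 39 had 82, 20 had 84, 64 had 85, 7 had 86, 1 had 89 and 1 had 90. Arabidopsis chromosome 1 held 115 of them, chromosome 5 held 36, chromosomes 3 and 4 held 24 each, chromosome 2 held 14 and the chloroplast genome held 1. Of the 56 patterns, 21 were a single entry and the largest held 26 entries of 82 bases, while no pattern included a shorter tRNA entry. Just inside the length limit, the 58 entries of 74 bases took 0 to 8.75% of the annotated counts of a library, and just outside it the 97 entries of 73 bases took 59.5% to 88.0%.

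More members had reads under stress than in normal culture in every library of C. zofingiensis, while 1 normal library of C. sorokiniana overlapped the stress libraries. In normal C. sorokiniana 96, 36 and 2 members had reads, and under stress 106, 113 and 89 did. In C. zofingiensis 73, 123 and 139 members had reads in the normal libraries and 198, 186 and 165 under stress. All 3 libraries of a group shared 1 pattern in normal and 28 in stressed C. sorokiniana, against 25 and 46 in C. zofingiensis. These numbers are not adjusted for depth, and the 2 members in the shallowest library were read from only 2718 annotated counts. In C. zofingiensis the shallowest library of each condition had the fewest members, 73 at 14601 annotated counts in normal library 1 and 165 at 24978 in stress library 3. Across conditions, normal library 2 had 106200 annotated counts and fewer members than stress library 3. The mean number of tRNA entries of all lengths with reads also rose, from 326 to 403. The part of depth in the difference was not tested. In the plot of all 56 patterns the C. zofingiensis stress columns are the fullest, and 4 of the patterns were listed in that group alone.

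**Figure D1:**
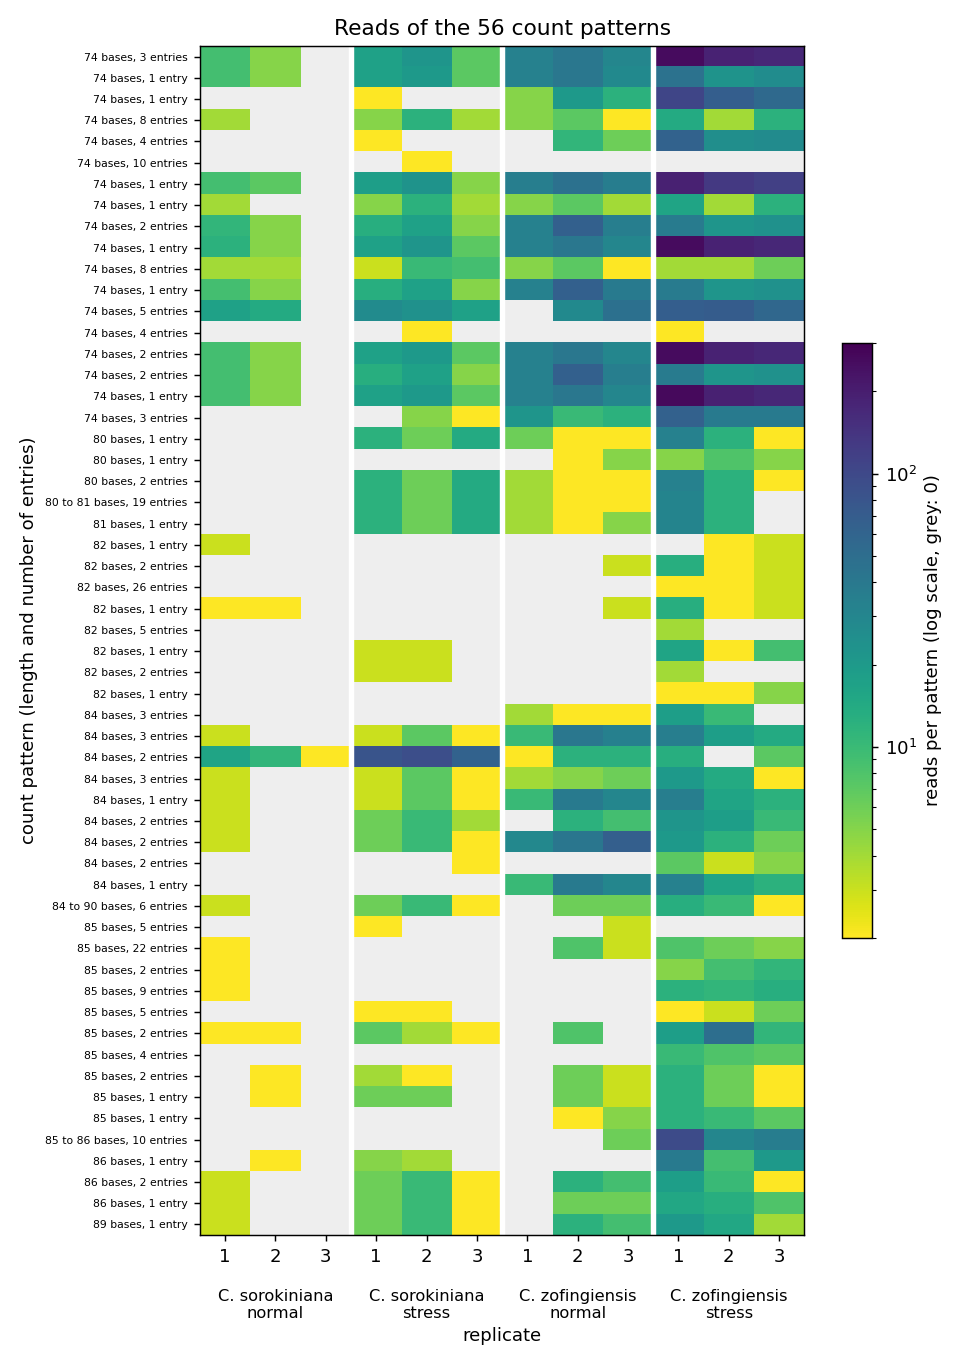
Reads of each of the 56 count patterns (rows, by length and number of entries) in each of the 12 libraries (columns, by group and replicate), on a log colour scale with grey for 0. The darkest cells are 74-base patterns in stressed C. zofingiensis, and normal library 3 of C. sorokiniana has reads in 1 pattern, the 84-base pair that leads in that species.

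The members' share of the annotated counts was 2.35%, 1.46% and 0.147% in the normal libraries of C. sorokiniana and 4.94%, 4.50% and 3.79% under stress. The group means were 1.32% ± 1.11 and 4.41% ± 0.58 (SD, n = 3 each), and the lowest stress library lay above the highest normal one. In C. zofingiensis the share was 5.82%, 1.64% and 2.79% in normal libraries and 10.1%, 1.32% and 12.7% under stress. Those groups overlapped, with means of 3.42% ± 2.16 and 8.04% ± 5.97 (SD, n = 3 each), because stress library 2 lay below every normal library. That is the library in which the 5 entries of another length took 34.3%, and without it the stress mean was 11.4%. In the stress libraries of C. sorokiniana, where the members' share was high, 5 tRNA entries of another length likewise took 32.1%, 32.2% and 32.4%. These shares sum over entries, so a read counts at each entry it matched. With each pattern counted once the normal and stress means were 1.27% and 3.97% in C. sorokiniana and 3.95% and 8.14% in C. zofingiensis. The share is a description without a test, and in bulk RNA fewer cells and less RNA per cell cannot be told apart.

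**Figure D2:**
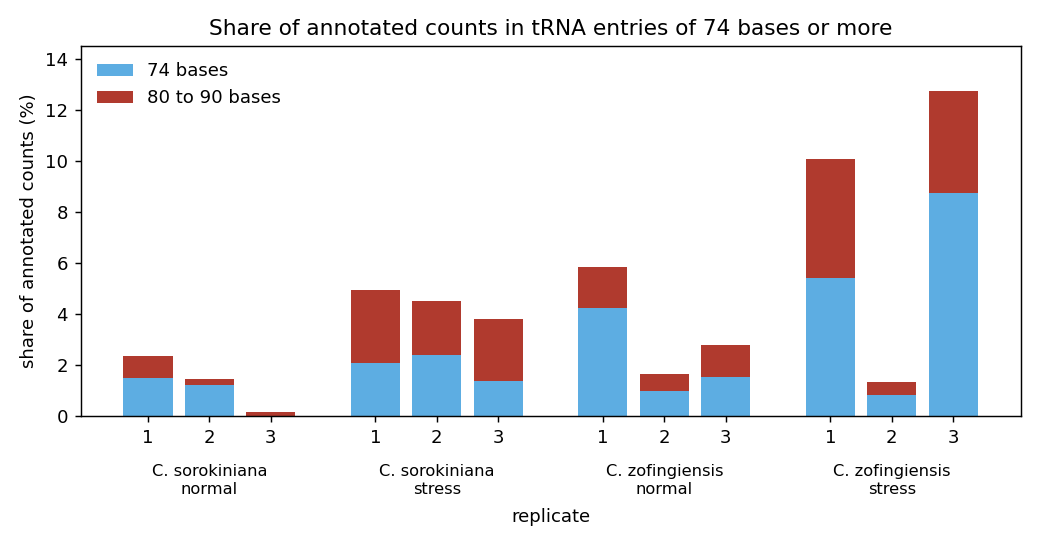
Share of annotated counts (%) in tRNA entries of 74 bases or more, one bar per library, split into entries of 74 bases and of 80 to 90 bases. Stressed C. sorokiniana stands at 3.79% to 4.94%, above its normal libraries, while stressed C. zofingiensis runs from 1.32% to 12.7%.

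In C. sorokiniana the entries of 80 bases or more held more of the difference than the 74-base entries did. Their part of the annotated counts was 0.876%, 0.250% and 0.147% in normal libraries and 2.88%, 2.10% and 2.42% under stress. The 74-base entries took 1.47%, 1.21% and 0% in normal and 2.06%, 2.40% and 1.38% in stressed libraries, and there the groups overlapped.

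The member that stood out in C. sorokiniana was a pair of 84-base entries with the same counts, one in the chloroplast genome at chrC:30323-30406 and one on chromosome 3 at chr3:7104309-7104392. The pair had 16, 11 and 2 reads in the normal libraries and 81, 90 and 62 under stress. All stress libraries lay above all normal ones, and this was the only pattern with reads in every normal library. It rose by 2.00 ± 0.67 (SE) on the log2 scale (adjusted p = 0.0135, quasi-likelihood test of edgeR, adjusted after Benjamini and Hochberg, BH). The call was lost without normal library 1 or without stress library 2 or 3, with edgeR BH adjusted p of 0.0949, 0.0754 and 0.131, at log2 fold changes of 2.26, 2.30 and 2.29. These fits left out the replicate number. With that number as a block the pair was still called, at an adjusted p larger than 0.0135.

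The chloroplast pair was led by 1 tag in stressed C. sorokiniana and by another in normal C. zofingiensis. In stressed C. sorokiniana its commonest tag was the 21-base tag printed above, with 14, 13 and 9 reads, and the letters before the last A are CCA, with which mature tRNAs end. The tag matched 2 loci, the 2 entries of the pair, so reads cannot be divided between them. In normal C. zofingiensis a 27-base tag led with 2, 10 and 10 reads. The pair itself had 2, 12 and 12 reads there and 13, 0 and 7 under stress, so the groups overlapped, and its log2 fold change was -0.31 ± 0.96 (edgeR, BH adjusted p = 0.766).

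Only 4 rows of members had enough reads for the test in C. sorokiniana, and the chloroplast pair was the 1 row called. Over all annotation entries 28 of 66 rows were called, which is 42.4%, so 1 of 4 is no larger a share. Without normal library 2 or 3 there were 2 calls of 9 rows tested, beside 32.6% and 44.6% of all rows. Without normal library 1 there were 0 of 9, beside 19.8%, and without stress library 3 there were 0 of 8, beside 8.64%. The other 3 rows tested were 74-base patterns. The most abundant of them, 5 entries led by chr2:14743475-14743548, had 17, 14 and 0 reads in normal and 27, 24 and 17 under stress. Scaled for depth these groups overlapped, and the log2 fold change was 0.19 ± 0.47 (edgeR, BH adjusted p = 0.765). At chr1:9143810-9143883 a single entry had 12, 5 and 0 reads and then 17, 22 and 7, which gave 0.46 ± 0.65 (edgeR, BH adjusted p = 0.604). Across the 4 rows the median log2 fold change was 0.32, beside 0.28 over all rows tested.

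Many members of C. sorokiniana were too rare for the test. With every row that had a read, stress libraries lay above all normal libraries, on counts scaled with TMM, in 4 of 27 member rows and in 29.4% of all 218 rows. One of the 4 was the row of 80-base and 81-base entries. These had no read in any normal library and 12, 6 and 14 reads under stress, and the same counts stood in all entries of 80 and 81 bases except the 1 on chromosome 1 inside the cluster described below. The remaining rows were a 74-base pattern of 8 entries, led by chr1:1978084-1978157, with 4, 0 and 0 and then 5, 12 and 4 reads, and an 84-base pair, led by chr2:15208355-15208438, with 3, 0 and 0 and then 6, 10 and 4 reads. A pattern of 8 entries of 74 bases, led by chr1:11104113-11104186, overlapped between the groups, at 4, 4 and 0 and then 3, 10 and 9 reads. The 26-base tag printed for it held all its reads under stress and matched 8 loci, the same number as the entries that it led. None of the 27 rows lay lower in all stress libraries, which 8.26% of all rows did. Rows without a read in normal libraries, such as that of the 80-base entries, could not lie lower and are counted only through the stress libraries.

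**Figure D3:**
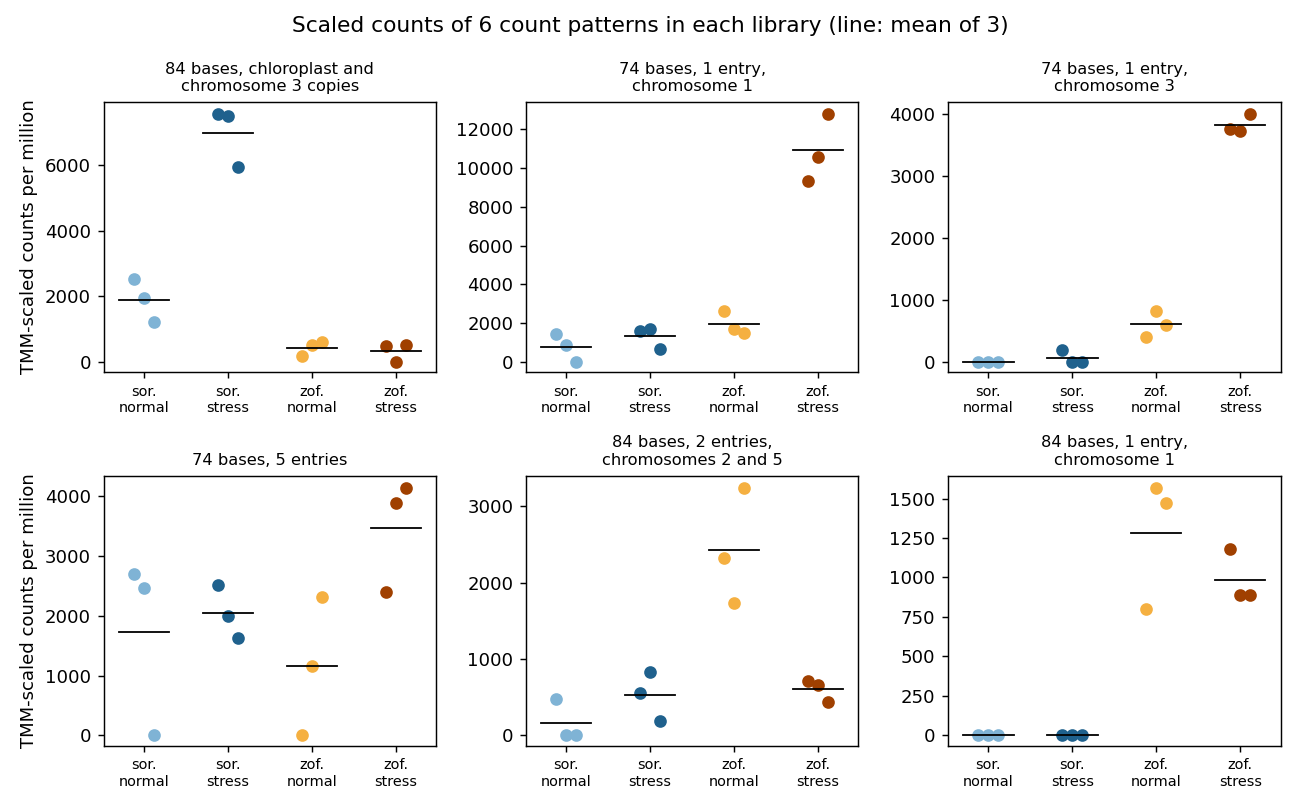
Counts of 6 count patterns, scaled with TMM, in each library (points, 3 per group) with the group mean (line); the scale starts at 0 and differs between panels. The 84-base chloroplast pair is high in stressed C. sorokiniana, both single 74-base entries in the upper row are high in stressed C. zofingiensis, and the single 84-base entry has reads in C. zofingiensis alone.

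In C. zofingiensis 4 rows of 74-base entries rose under stress and 1 row of 84-base entries fell. They were 5 of 17 member rows tested, beside 39 of 116 rows over all entries, or 33.6%. Over all entries 21.6% of rows were called higher and 12.1% lower. The strongest fit was the single entry at chr3:1738791-1738864. It had 5, 20 and 12 reads in the normal libraries and 105, 67 and 54 under stress, and it rose by 2.69 ± 0.40 (SE) on the log2 scale (edgeR, BH adjusted p = 0.00108). The same 13-base tag, which matched 17 loci, led this entry in all 6 libraries, with 3, 12 and 5 reads and then 40, 30 and 22. In C. sorokiniana the entry was near absent, with 2 reads in 1 stress library.

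The other rows that rose belonged to 1 family of 74-base entries. In normal C. zofingiensis the tag gactgttaaccacaA was the commonest tag of 14 entries in 9 patterns on 5 chromosomes, with 24, 28 and 13 reads in the 3 libraries. The entry at chr1:26049478-26049551 had 33, 41 and 30 reads in normal libraries and 262, 191 and 173 under stress. It rose by 2.58 ± 0.41 (edgeR, BH adjusted p = 0.0015). A row of 6 entries in 3 patterns, led by chr1:9143810-9143883 with 33, 41 and 30 and then 260, 187 and 173 reads, rose by 2.57 ± 0.41 (edgeR, BH adjusted p = 0.0015). The patterns led by chr2:102065-102138 and chr3:18917433-18917506 are part of that row. At chr1:5189687-5189760 a single entry went from 35, 46 and 36 to 188, 130 and 117 reads and rose by 1.89 ± 0.39 (edgeR, BH adjusted p = 0.00478).

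The remaining 6 entries of the family did not pass the test. At chr1:1583772-1583845 an entry had 33, 41 and 28 reads and then 45, 23 and 26, and a log2 fold change of -0.16 ± 0.42 (edgeR, BH adjusted p = 0.731). The 4 entries led by chr1:19424555-19424628, which include the pattern led by chr2:7955677-7955750, had 33, 64 and 35 and then 37, 22 and 24 reads. Their log2 fold change was -0.62 ± 0.39 (edgeR, BH adjusted p = 0.228), and the entry at chr4:11910289-11910362 had -0.65 ± 0.38 (edgeR, BH adjusted p = 0.2). In the normal libraries all 14 entries lay between 28 and 64 reads.

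Different tags led the 14 entries in the stress libraries. A 17-base tag that matched 30 loci led 7 entries with 60, 48 and 36 reads, and these entries had 173 to 262 reads. A 15-base tag that matched 3 loci led the entry at chr1:5189687-5189760 with 159, 119 and 97 of its 188, 130 and 117 reads. A 16-base tag that matched 14 loci led 5 entries with 15, 7 and 12 reads, and these had 37, 22 and 24 reads in all. By eye, with no search of a sequence database, the 17-base tag of the 7 entries and the 15-base tag resembled bacterial tRNA, and they led 3 of the 4 rows that rose. The last of the 14, at chr1:1583772-1583845, was led by another 17-base tag in 2 libraries and by a 12-base tag in the other. Over all members, 28 of the 41 patterns with reads in both conditions of C. zofingiensis had no commonest tag in common between normal and stress libraries, and 3 had one and the same tag throughout. In C. sorokiniana 9 of 27 such patterns had none in common and 9 had one and the same tag. The share over all annotation entries was not counted, so these numbers are not a result about the members. The 9 patterns of the family, which share their normal tag, are all among the 28. Some leading tags had only 2 or 3 reads.

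Other sequences also moved with the C. zofingiensis stress libraries. Among the 100 commonest tags listed for each library, reads with the letters CGCCAGG, a motif of bacterial 5S rRNA searched on the read strand only, came to 5843, 1073 and 1034 in the 3 stress libraries. That was 1.17%, 1.31% and 1.25% of the listed reads, in 3, 4 and 3 tags. No listed tag held the motif in normal C. zofingiensis or in any C. sorokiniana library. Tags rarer than the 100 listed could not be seen, and the letters alone do not identify a tag. The part of RNA from other organisms in the rises, whose leading tags resembled bacterial tRNA in 3 of 4 rows, was not tested.

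The row that fell was a pair of 84-base entries on chromosomes 2 and 5, led by chr2:15470162-15470245. It had 29, 42 and 66 reads in normal and 20, 12 and 6 under stress, and it fell by 1.91 ± 0.44 on the log2 scale (edgeR, BH adjusted p = 0.00816). Every stress library lay below every normal one. Its commonest tag in normal libraries 1 and 2 was a 15-base tag that matched 9 loci, with 13 and 15 reads. The same tag led in stress library 3 with 2 reads, and a 14-base tag led in normal library 3 with 21. In stress libraries 1 and 2 a 17-base tag that matched 30 loci led with 5 and 4 reads. It is not the 17-base tag of the 7 entries above. In C. sorokiniana the pair had 3, 0 and 0 and then 6, 10 and 2 reads, too few for the test.

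Some 84-base entries of C. zofingiensis gave no call. The 3 entries led by chr1:6948860-6948943 had 10, 41 and 34 reads in normal and 35, 18 and 14 under stress, and a log2 fold change of -0.29 ± 0.47 (edgeR, BH adjusted p = 0.594). Among 74-base entries, the 3 led by chr1:30083996-30084069 had 22, 10 and 12 and then 63, 39 and 38 reads. All scaled stress values lay above the normal ones, but the row missed the threshold at 1.51 ± 0.57 (edgeR, BH adjusted p = 0.0676), while the DESeq2 Wald test called it at an adjusted p of 0.0321. The 5 entries led by chr2:14743475-14743548 had 0, 28 and 47 and then 67, 70 and 56 reads, with 1.62 ± 0.89 (edgeR, BH adjusted p = 0.189).

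The C. zofingiensis calls depended on the scaling. TMM, which corrects a library's total for a few dominant RNAs, gave factors from 0.182 in stress library 2 to 2.45 in normal library 1. With library totals alone none of the 5 rows passed, at edgeR BH adjusted p of 0.256 to 0.565, although their log2 fold changes kept their signs at 1.36 to 2.51 for the higher rows and -2.54 for the lower one. The median log2 fold change was 1.01 over the 17 member rows and -0.36 over all 116 rows. It was 0.75 and -0.89 with library totals, and -0.14 and -0.75 when tRNA entries alone were scaled, so the sign of the members' median turned there while it stayed above that of all rows. Without normal library 1 and stress library 2, whose factors stood apart, 10 member rows rose and 1 fell of 27 tested, beside 52.8% of all 142 rows called. Leaving out normal library 1, 2 or 3 alone gave 11 calls of 27 member rows, 9 of 30 and 8 of 33, beside 40.5%, 29.0% and 28.1% of all rows. Leaving out stress library 2 or 3 gave 9 of 30 and 10 of 26, beside 34.2% and 34.3%.

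**Figure D4:**
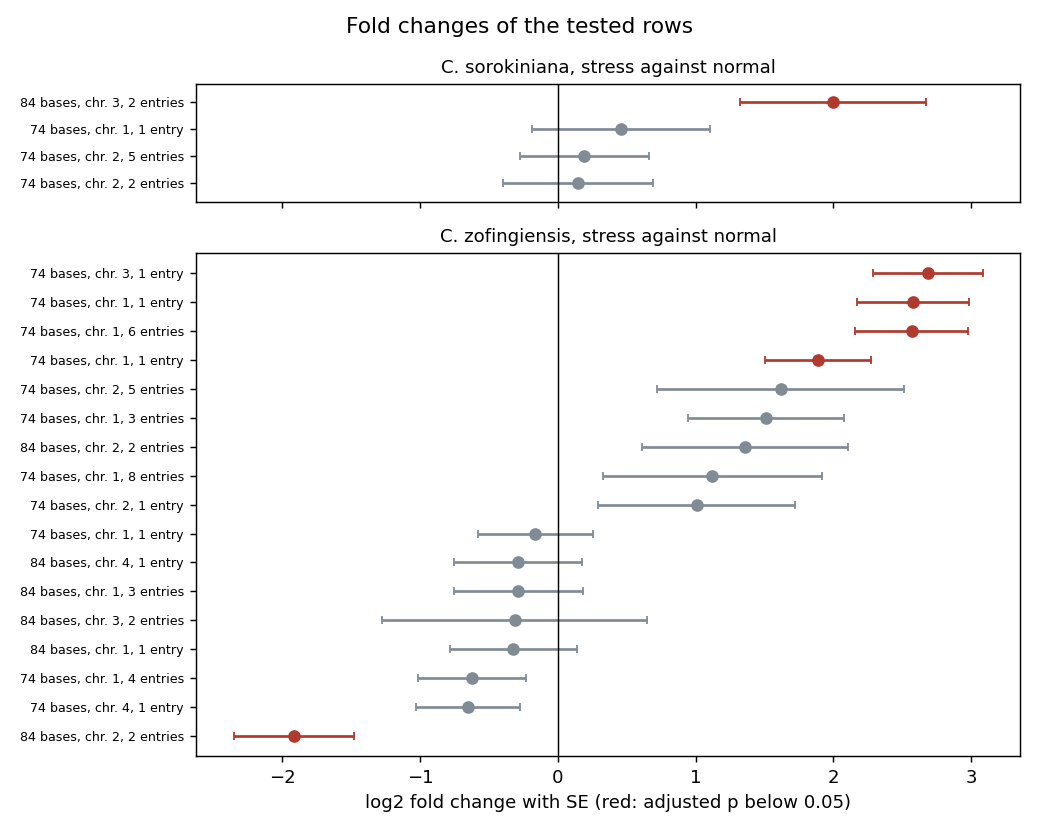
Log2 fold change with its SE of every member row tested, stress against normal, for C. sorokiniana (4 rows) and C. zofingiensis (17 rows), labelled by length, chromosome of the first entry and number of entries. Red marks an adjusted p below 0.05, reached by 1 row in C. sorokiniana and by 4 higher rows and 1 lower row in C. zofingiensis.

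With every row that had a read, C. zofingiensis stress libraries lay above all normal libraries, on counts scaled with TMM, in 21 of 49 member rows and in 23.9% of all 326 rows. On shares of the library total this held for 10 of 49 member rows and 11.3% of all rows. Only the 84-base pair that fell lay lower in all stress libraries, against 13.2% of all rows. Rows without a read in normal C. zofingiensis, such as the one led by chr1:21279720-21279804, could not lie lower. They are in these counts only through the stress libraries, where they are high. A pattern of 85 and 86 bases with 10 entries, led by chr1:1324923-1325007, had 0, 0 and 6 reads in normal libraries and 96, 30 and 36 under stress, and it had none in C. sorokiniana. The 86-base entry at chr4:5268128-5268213 had no read in normal C. zofingiensis and 39, 9 and 20 under stress. The 26 entries of 82 bases that form the largest pattern had 2, 2 and 3 reads under stress and none in the other 9 libraries. In all, 36 members in 4 patterns had reads in stressed C. zofingiensis alone, so they are members only through that group.

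Of the other RNA classes in the same fit of C. zofingiensis, tRNA entries of 73 bases gave 7 higher and 1 lower row of 23, entries of 72 bases or fewer gave 5 higher and 0 lower of 28, and snoRNA entries gave 4 higher and 9 lower of 33. Precursors of miRNAs gave 2 higher and 3 lower of 9, and rRNA entries 1 higher of 2. In C. sorokiniana the entries of 72 bases or fewer gave 6 higher of 16, and those of 73 bases gave 1 lower of 11. These counts stand side by side without a test between classes.

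A cluster of members lies in 1 stretch of Arabidopsis chromosome 1. From chr1:21268787 to chr1:21308471, a span of 39685 bases, 74 tRNA entries were listed in at least 1 library, all of them members. Of these, 53 had 85 bases, 18 had 82, 2 had 84 and 1 had 80. The median distance between neighbouring starts of listed entries was 458 bases, and no shorter tRNA entry was listed in the stretch. The 74 entries gave only 13 count patterns in it. The positions are those of the Arabidopsis annotation, which may hold further entries there without reads. They say nothing of where the algal genes lie.

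In C. sorokiniana 35, 5 and 0 entries of this cluster had reads in normal libraries and 15, 10 and 4 under stress. With each pattern counted once, the reads were 8, 6 and 0 and then 21, 14 and 4. In normal C. zofingiensis 0, 29 and 32 entries were found, with 0, 32 and 22 reads, and under stress 69 entries were found in each library, with 105, 121 and 77 reads. The stress libraries of C. zofingiensis were thus the highest of all 12 in the cluster, on reads not scaled for depth. The 18 entries of 82 bases and the 4 led by chr1:21291791-21291875 had reads in stressed C. zofingiensis alone. They are in the cluster list only through that group, so the listing itself sets part of the 69. The most abundant pattern was the pair led by chr1:21290903-21290987, which had 0, 8 and 0 reads in normal and 18, 49 and 11 in stressed C. zofingiensis. In C. sorokiniana this pair had 2, 2 and 0 and then 7, 4 and 2 reads, and the 22-base tag printed for it, which matched 2 loci, held 3 of the 7. The pair led by chr1:21296663-21296747 had 0, 2 and 0 and then 4, 2 and 0 reads in C. sorokiniana and 0, 6 and 3 and then 12, 6 and 2 in C. zofingiensis, so its groups overlapped in both species. A pattern of 9 entries, led by chr1:21279720-21279804, had no read in normal C. zofingiensis and 12, 11 and 13 under stress. No pattern of the cluster had enough reads for the test in either species.

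**Figure D5:**
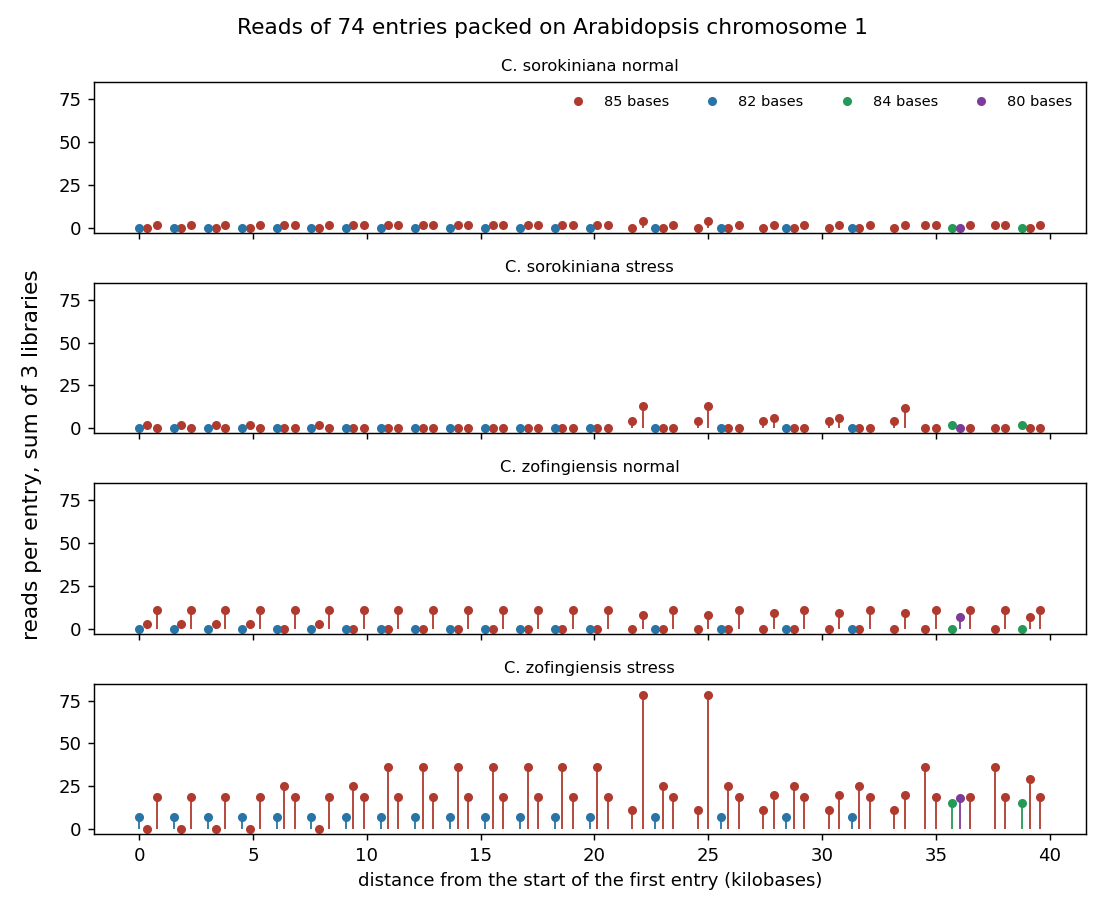
Reads per entry, summed over the 3 libraries of a group, along the cluster of 74 members on Arabidopsis chromosome 1, with the distance in kilobases from the start of the first entry; colours mark entry lengths. Entries with the same counts share their reads, and the tallest points, in stressed C. zofingiensis, are the pair with 18, 49 and 11 reads.

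Most of the longest entries had few reads. An exception was the 86-base entry at chr3:2232465-2232550, which belongs to the pattern of 10 entries with 96, 30 and 36 reads in stressed C. zofingiensis. The 90-base entry at chr3:3238367-3238456 shared its counts with 5 other entries of 84 bases or more, namely 3, 0 and 0 reads in normal and 6, 10 and 2 in stressed C. sorokiniana, and 0, 6 and 6 and then 13, 10 and 2 in C. zofingiensis. The 89-base entry at chr5:20741626-20741714 had the same counts in C. sorokiniana and 0, 12 and 9 and then 20, 15 and 4 in C. zofingiensis. Its commonest tag in normal library 2 was the 35-base tag printed above, with 3 of 12 reads, the longest commonest tag of any member, which led 12 members in that library. The 86-base entries at chr1:19685134-19685219 and chr3:17974591-17974676 also had the same counts in C. sorokiniana, where the groups overlapped. In C. zofingiensis the first had 0, 6 and 6 and then 15, 13 and 8 reads, and every stress library lay above every normal one. The other had 0, 12 and 9 and then 18, 10 and 2 reads there, and its groups overlapped, as did those of the 89-base entry. No row of entries of 86 bases or more was tested in either species.

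An interaction term over the 12 libraries tested whether the response differed between species. It called 0 of 19 member rows at an edgeR BH adjusted p below 0.05, beside 13 of 135 rows over all entries, or 9.63%. At an unadjusted p under 0.05 there were 5 member rows, and the DESeq2 Wald test called 0. Leaving out normal library 1 or 3 or stress library 3 of C. sorokiniana, or normal library 1 or 2 or stress library 2 or 3 of C. zofingiensis, gave 1 call, beside 7.43% to 17.4% of all rows. The entry at chr1:9143810-9143883 had the smallest p, with a difference of 2.23 ± 0.87 on the log2 scale with the larger value in C. zofingiensis (edgeR, BH adjusted p = 0.124). For the chloroplast pair the difference was -2.18 ± 0.98 (edgeR, BH adjusted p = 0.134). With the replicate number as a block within each species, the pair was the 1 member row called of 19, beside 15.6% of all rows (edgeR, BH adjusted p = 0.0343). No label says that the numbers pair libraries, and the block ties them in both species. Without the block the chloroplast pair was not called. In the main fit the response was thus not shown to differ between the species for any of the 19 member rows.

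Levels did differ between the species, averaged over both conditions. Of 19 member rows, 9 were higher in C. zofingiensis and 1 was lower, beside 93 of 135 rows called over all entries, or 68.9%, with 33.3% higher and 35.6% lower. Leaving out stress library 1 of C. sorokiniana or normal library 1 of C. zofingiensis gave 16 and 17 calls of 26 rows, beside 61.6% and 66.1% of all rows. The lower one was the chloroplast pair, at -3.29 ± 0.50 on the log2 scale (edgeR, BH adjusted p = 5.95e-06). In C. zofingiensis it had at most 13 reads in a library, against 62 to 90 in stressed C. sorokiniana. The reads were matched to Arabidopsis, so a difference in level and a difference in sequence between the algae cannot be told apart.

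Higher in C. zofingiensis were 5 of the 74-base family's rows, the 74-base row of 3 entries led by chr1:30083996-30084069 and 3 rows of 84-base entries. Most of the family rows had nearly the same counts in C. zofingiensis, as had the 84-base rows, so they are not separate signals. At chr1:9143810-9143883 the scaled counts were 2640, 1690 and 1470 in normal and 9280, 10400 and 12800 in stressed C. zofingiensis. In the stress libraries its leading tag resembled bacterial tRNA by eye, which was not tested. The entry at chr1:26049478-26049551 was higher by 2.02 ± 0.42 and the one at chr1:5189687-5189760 by 1.71 ± 0.42 (edgeR, BH adjusted p = 0.000238 and 0.00114). For the 84-base entries led by chr1:6948860-6948943 the difference was 2.13 ± 0.56 (edgeR, BH adjusted p = 0.00179), and in normal C. zofingiensis they were led by a 16-base tag that matched 33 loci, with 6, 29 and 26 reads. At chr4:13076574-13076657 an 84-base entry had 10, 38 and 30 and then 35, 16 and 12 reads in C. zofingiensis, and 3, 0 and 0 and then 3, 7 and 2 in C. sorokiniana. The 84-base entry at chr1:23802553-23802636 had no read in any C. sorokiniana library and 10, 38 and 30 and then 33, 16 and 12 in C. zofingiensis. In all, 54 members in 10 patterns had no read in C. sorokiniana and 10 members in 1 pattern had none in C. zofingiensis. Rows with any count numbered 27 among members and 218 over all entries in C. sorokiniana, and 49 and 326 in C. zofingiensis. Annotated counts reached at most 26102 in a C. sorokiniana library and 280404 in a C. zofingiensis library, and the absences are not adjusted for this.

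The authors' deposited table for C. sorokiniana lists 41 members and gives both entries of the chloroplast pair a log2 fold change of 3.70 with p = 0.000114 and FDR = 0.00192. They are the 2 members below an FDR of 0.05 there, beside 5.96% of the 218 entries in that table. In the authors' deposited table for C. zofingiensis, which lists 92 members, no member had an FDR below 0.05 and no entry of any class did, which is 0% of 337. The smallest member p in the authors' deposited table was 0.0113 for the entry at chr1:5189687-5189760, with FDR = 0.138 and a log2 fold change of 4.17. The authors' deposited tables give no finite fold change for 38 of the 41 and 58 of the 92 members.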

How the data were processed

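The libraries were prepared with NEBNext's Multiplex Small RNA kit, per the labels' protocols. The submitters' processing notes name DESeq and TAIR9, and no aligner is named in the sources used here. The deposited annotation sheets, which the authors made with omiRas per the file headers, hold counts of reads per Arabidopsis entry, a signal made by dividing counts by mapping loci, and the commonest tag of each entry with other values on it. Tag tables hold deposited counts of the 100 commonest tags. The authors' comparison tables give p-values, FDR and other values such as log2 fold changes, per the file headers.

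The whole annotation table was fitted with edgeR 4.0.16 in R 4.3.3 (quasi-likelihood test, two-sided, TMM, filterByExpr, robust dispersion), with entries of a class that had identical counts entered once, an unlisted entry taken as 0 and Benjamini-Hochberg adjustment over all rows. An adjusted p below 0.05 was called. Condition was the only term in each species on 6 libraries, and 12 libraries gave the interaction and the species difference. The fits were also run on counts simulated from a mean profile shared by all libraries of a fit. Apart from the changes put in, these hold no difference in make-up between libraries. That run therefore does not test the scaling on which calls depended. No label says that replicate numbers pair libraries. In C. sorokiniana, libraries with the same replicate number deviated together (correlations of 0.25, 0.261 and 0.185), against -0.304 to 0.0988 for unlike numbers. The numbers may therefore pair the libraries there. The main fits left them out, and a replicate block was fitted as an alternative.

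Named were the 10 patterns with the highest mean share per species, every called pattern, the 5 longest entries and members with the smallest p in the authors' tables; the tags, the chromosome 1 cluster and patterns named by non-overlap or at 0 were chosen after their values were seen. The members and lists were chosen with earlier results of these data known. Alternatives were every entry as deposited, DESeq2 1.42.0 size factors and Wald test, library totals, tRNA entries alone, no filter, a replicate block and leaving out each library; limma 3.58.1, pandas 2.3.3, numpy 2.4.6 and matplotlib 3.10.9 were used with Python 3.11.15.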

Additional observations from a re-analysis of the deposited data

Results flagged for a closer look

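The tag tables, which no comparison of members used, held a signal in 1 group alone. Reads with the letters CGCCAGG made up 1.17%, 1.31% and 1.25% of the listed reads in the 3 stress libraries of C. zofingiensis. No listed tag held these letters in the 9 other libraries, where rarer tags could not be seen. Their source was not tested.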

How the results depend on the processing

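Of 319 alternative values for the 20 printed member fits, 298 kept their direction and their side of the threshold, 9 kept the direction and lost the call, 9 gained one and 3 changed sign. The C. sorokiniana count of 1 became 2 with no low-count filter and 0 to 2 when 1 library was left out. In C. zofingiensis 5 called rows became 0 with library totals alone, 15 with no filter, 5 to 11 with 1 library left out and 11 without normal library 1 and stress library 2, an alternative added after the data were seen. The interaction count of 0 became 1 with every entry as deposited, 3 with no filter, 1 with the replicate block and 0 to 1 with 1 library left out. The species count of 10 became 18 with no filter and 11 to 17 with 1 library left out, and without a filter more rows were tested. The entry at chr2:14743475-14743548 in C. sorokiniana turned to -0.22 with tRNA entries alone and ran from -0.049 to 0.74 with 1 library left out, lowest without normal library 3. The chloroplast pair in C. zofingiensis ran from -0.75 to 0.17, highest without stress library 2. None of these was called in any such fit. The cause was not tested. The entry at chr1:5189687-5189760 in C. zofingiensis lost its call with tRNA entries alone (edgeR, BH adjusted p = 0.144). In C. zofingiensis, libraries with the same replicate number had correlations of 0.611, 0.718 and -0.00712, against -0.621 to 0.388 for unlike numbers. The numbers may therefore pair libraries there too. The main fit left them out, and with the replicate block 7 rows were called in C. zofingiensis. The single interaction call with the block was the chloroplast pair (edgeR, BH adjusted p = 0.0343). In C. sorokiniana the block changed no call, with 2.02 ± 0.82 for the chloroplast pair (edgeR, BH adjusted p = 0.0407). The members' mean share in stressed C. sorokiniana was 6.10% with counts divided by mapping loci and 2.47% from 75 bases up, and in normal C. zofingiensis it was 1.16% from 75 bases up. With 1 library left out the shares ran from 0.802% to 1.90% and 4.15% to 4.72% in normal and stressed C. sorokiniana, and from 2.21% to 4.31% and 5.70% to 11.4% in C. zofingiensis. Low counts left 4 of 27 member rows for the test in C. sorokiniana and 17 of 49 in C. zofingiensis.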
